A study of Homo sapiens with 24 samples.

Results

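The genes described here make cholesterol and fatty acids or control that synthesis. They are 32 of the 57500 gene identifiers counted in a study of the microRNA miR-497-5p. They were listed by function, but with earlier results of these data known, so their counts beside all genes are descriptive. The list holds 7 enzymes of the mevalonate pathway, 11 enzymes that turn farnesyl diphosphate into cholesterol, 5 regulators or sterol carriers, and 9 genes of fatty acid and glycerolipid synthesis. The first 18 are called the sterol branch below. Every member was matched to its Ensembl identifier, and every member passed the filter on low counts in each fit.

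The cells were H2052, an established human pleural mesothelioma line (mesothelioma arises in the membrane around the lungs), grown as monolayers with fetal bovine serum. They received 20 nM of a mimic with biotin at its 3′ end through RNAiMAX, either a scrambled control or miR-497-5p, which the labels write as miR-497-5p-RE without explaining the suffix. At 12 h and 72 h, poly(A) RNA of the cells was sequenced (RNA-seq), and so was poly(A) RNA held by streptavidin beads after incubation with cytoplasmic extract (pull-down). This gave 8 groups of 3 libraries, and no group without a mimic was analysed here. Nothing in the labels ties the replicates to separate cultures. The p-values therefore measure the spread among the libraries sequenced, and that spread may be only technical.

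Cholesterol and fatty acids are both built from acetyl-CoA. The transcription factors SREBF1 and SREBF2 are made as membrane proteins that the escort protein SCAP carries to the Golgi, where proteases release them. When sterols are plentiful, INSIG1 holds SCAP back in the endoplasmic reticulum, so the genes of both pathways are known for moving together with the supply of sterol. A microRNA acts by pairing its seed, the bases near its 5′ end, with sites that lie mostly in the 3′ UTR of a messenger RNA.

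The mature sequence of miR-497-5p from RefSeq (chromosome 17, 7017979 to 7017999, minus strand, GRCh38.p14) is shown to define the sites searched in the members, with its seed, bases 2 to 8, in capitals.
miR-497-5p: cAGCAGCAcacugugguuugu
It pairs with TGCTGCT (a 7mer-m8 site) and TGCTGCTA (an 8mer site). The weaker sites are GCTGCTA (7mer-A1) and GCTGCT (6mer).

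In the longest annotated 3′ UTR, 6 of the 32 members (18.8%) held a 7mer-m8 or 8mer site, against 4377 of 19043 protein-coding genes (23%). Sites were found in 4 of 9 fatty acid genes (FASN, ACACA, ELOVL6 and ACSS2), in 2 of 18 sterol branch genes (MVK and FDFT1) and in 0 of 5 regulators. A match describes the letters only and not binding. The windows of FASN, ELOVL6, MVK, ACACA and ACSS2 are shown as examples of these sites, and that of FDFT1 is not reported here. They run 5′ to 3′ on the transcript strand with the site in capitals (GRCh38).
FASN, 7mer-m8 at 17, 82078457 to 82078463, minus strand: atgattcaaatTGCTGCTtggattttgaaa
FASN, 7mer-m8 at 17, 82078374 to 82078380, minus strand: tttggtaaaaaTGCTGCTctcagcctccca
FASN, 7mer-A1 at 17, 82079004 to 82079010, minus strand: tgccccccgagGCTGCTAgatgtaggtgtt
ELOVL6, 7mer-m8 at 4, 110051110 to 110051116, minus strand: tctccaagcacTGCTGCTggaagaccccat
ELOVL6, 8mer at 4, 110046053 to 110046060, minus strand: aggaggttgctTGCTGCTAtcttgaaaacc
MVK, 7mer-m8 at 12, 109597467 to 109597473, plus strand: caactctaggcTGCTGCTgcggagggagaa
ACACA, 7mer-m8 at 17, 37086079 to 37086085, minus strand: ctcagtcatggTGCTGCTgtcctccaggct
ACSS2, 7mer-m8 at 20, 34927659 to 34927665, plus strand: ttaaaatatttTGCTGCTtctgttctgggt

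**Figure D1:**
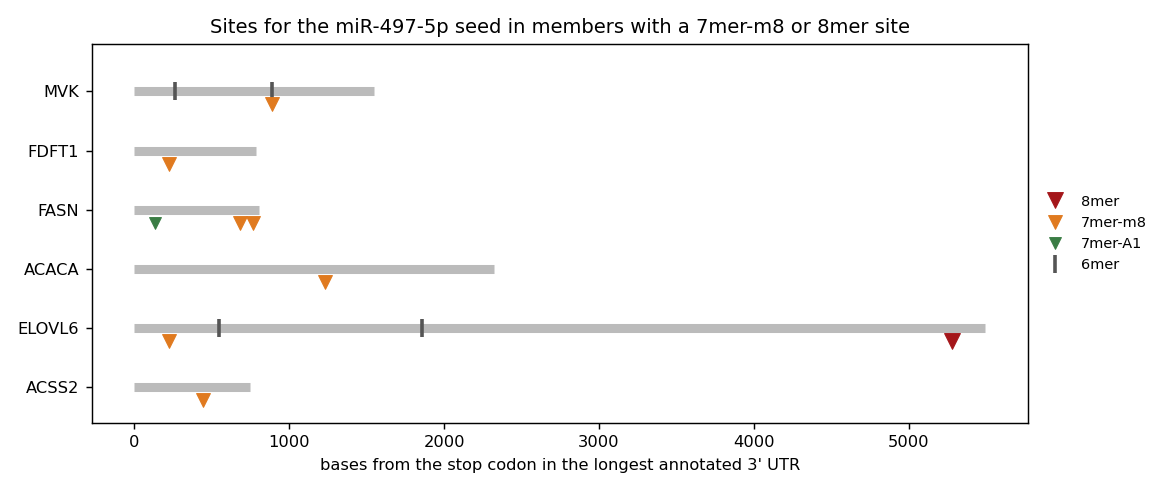
Position of sites for the miR-497-5p seed in the 6 members with a 7mer-m8 or 8mer site. The horizontal axis is the distance in bases from the stop codon, each grey bar is the longest annotated 3′ UTR, triangles are 8mer, 7mer-m8 and 7mer-A1 sites and upright strokes are 6mer sites. FASN holds 3 sites of 7 bases in a 3′ UTR of 805 bases, and the 8mer of ELOVL6 lies near the far end of 5492 bases.

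Total counts ranged from 21561816 to 30602007 per RNA-seq library and from 8262425 to 30650982 per pull-down library, the lowest being replicate 2 of the pull-down with miR-497-5p-RE at 72 h. The biological coefficient of variation was 0.06 in RNA-seq and 0.349 in the pull-down, so smaller differences could be called in RNA-seq. Of 12 mesothelial markers, MSLN, WT1, PDPN, LRRN4, KRT7, KRT8, KRT18, KRT19 and VIM were above 2 CPM in every RNA-seq library, while CALB2 (median 1.44 CPM) and UPK3B (median 0.236 CPM) were near 0. KRT5 was uneven, at 0 in 3 RNA-seq libraries with a median of 3.41 CPM and a highest value of 166 CPM. WEE1, a gene the series names, was lower in RNA-seq with miR-497-5p-RE at 12 h (-0.47 on the log2 scale) and 72 h (-0.95). In the pull-down WEE1 was higher at 12 h (1.71, edgeR adjusted p 0.00538) and did not differ at 72 h (0.29, edgeR adjusted p 0.604). PKMYT1, also checked, did not differ at 12 h in RNA-seq (0.02) or the pull-down (-0.42). At 72 h PKMYT1 was lower in both (-2.31 and -2.65). The summed level of 23 squamous epithelial markers ran from 203 to 491 CPM in RNA-seq control libraries at 12 h and from 114 to 314 CPM with miR-497-5p-RE. At 72 h those sums were 159 to 169 CPM and 176 to 189 CPM, with KRT10 the highest of the list by its median (153 CPM). Over the same groups at 72 h the mesothelial sum was 4141 to 4185 CPM in controls and 6060 to 6102 CPM with miR-497-5p-RE. The sum of 5 adipocyte markers was 0.889 to 5.64 CPM in controls and 1.31 to 12.6 CPM with miR-497-5p-RE at 12 h, and at most 0.906 CPM at 72 h. ADIPOQ, CIDEC and LEP were at 0 in 9, 7 and 8 of the 12 RNA-seq libraries, and PLIN1 (up to 4.36 CPM) and FABP4 (up to 4.02 CPM) in none. The sum of 5 hepatocyte markers was 9.33 to 10.1 CPM in controls and 9.53 to 10.1 CPM with miR-497-5p-RE at 12 h, and 5.24 to 5.56 CPM and 6.40 to 6.89 CPM at 72 h. SERPINA1 made up most of it (4.89 to 10.1 CPM), ALB, APOC3 and TTR were at 0 in 8, 8 and 9 libraries, and APOA1 in none. The sum of 5 leukocyte markers at 12 h was 4.38 to 5.22 CPM in controls and 2.59 to 3.86 CPM with miR-497-5p-RE. The arms did not overlap there, and at 72 h this sum was at most 0.47 CPM. The part of these marker levels in the results was not tested.

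Levels are given below in CPM (a gene's counts scaled by its library's TMM-adjusted total) and effects as log2 fold changes of miR-497-5p-RE over control ± the standard error, with 3 libraries per arm. A gene was called higher or lower when the quasi-likelihood test of edgeR gave it an adjusted p (Benjamini-Hochberg, over all genes tested) under 0.05. In bulk RNA, a change in the number of cells that express a gene and a change in RNA per cell cannot be told apart. Because strand use in counting is not stated, reads of overlapping genes on opposite strands cannot be separated.

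In RNA-seq at 72 h, transcripts of most steps from acetyl-CoA to cholesterol were lower with miR-497-5p-RE, as were fatty acid synthase and the transcripts of both SREBP proteins and their escort. Of the 32 members, 20 fell and 7 rose. The background was high, since 29.6% of the 17335 genes tested fell and 27.9% rose. The median effect was -0.28 over the members and 0.00 over all genes tested. In the sterol branch 12 of 18 members fell and 3 rose (median -0.31), and in the fatty acid group 4 of 9 fell and 3 rose (median -0.11), so members of both pathways moved in both directions.

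**Figure D2:**
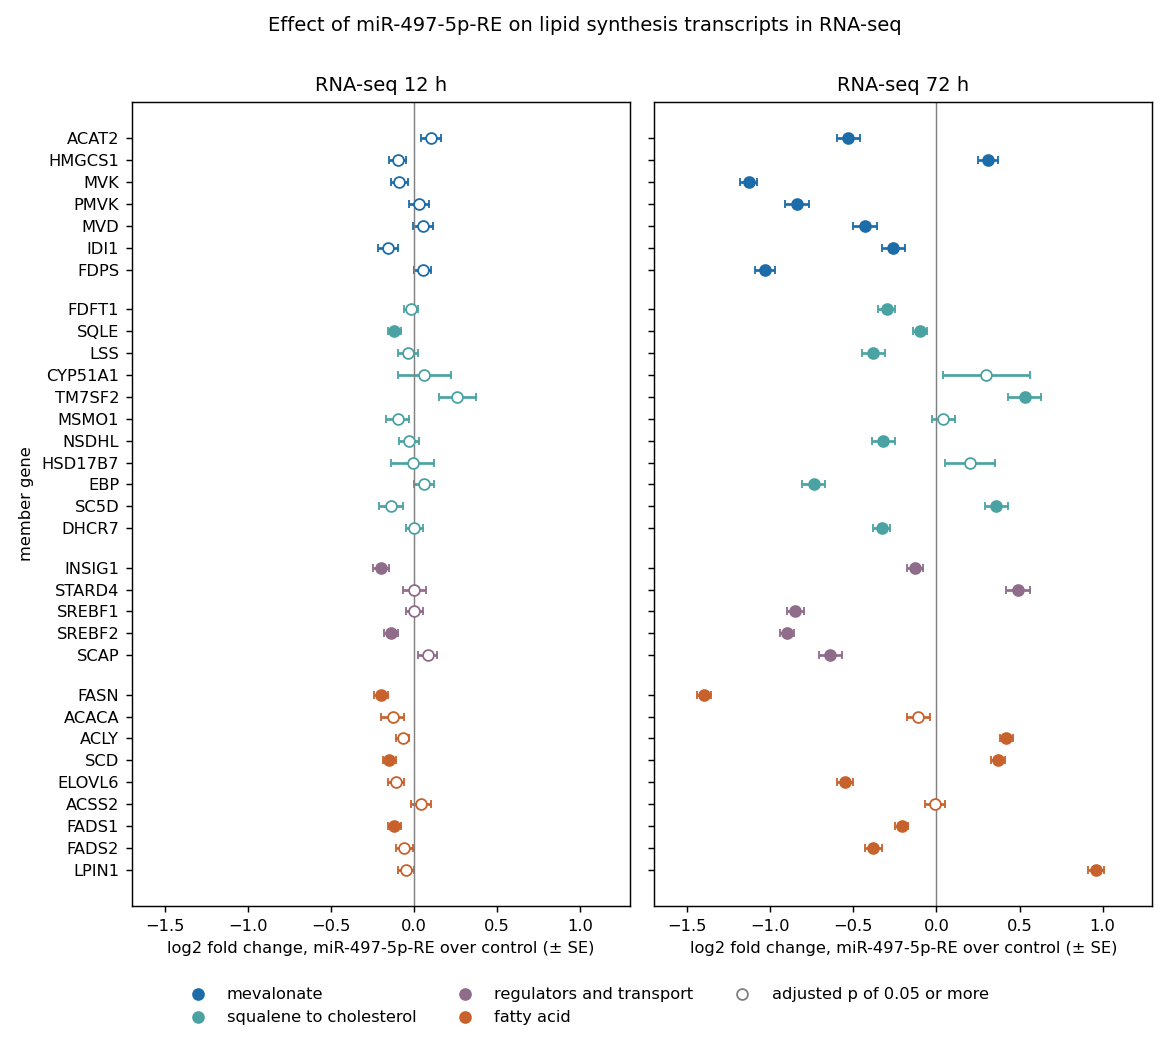
Effect of miR-497-5p-RE on each of the 32 members in RNA-seq at 12 h (left) and 72 h (right). Points are log2 fold changes over control with standard errors from 3 libraries per arm, coloured by role, and open points had an adjusted p of 0.05 or more. At 12 h every member lies between -0.20 and 0.26, whereas at 72 h members run from -1.40 (FASN) to 0.96 (LPIN1).

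In the mevalonate pathway, 6 of 7 enzymes fell and 1 rose at 72 h. MVK, the mevalonate kinase (ENSG00000110921, chromosome 12, 109573255 to 109598117, plus strand, GRCh38), stood at 79.5, 81.9 and 79.6 CPM in control libraries and at 36.6, 36.6 and 37.2 CPM with miR-497-5p-RE. All 3 treated libraries lay below all 3 controls, and the effect was -1.13 ± 0.05 (edgeR adjusted p 4.67e-23). FDPS, which makes farnesyl diphosphate (ENSG00000160752, chromosome 1, 155308748 to 155320666, plus strand), fell from 34.4, 32.4 and 37.0 CPM to 15.9, 17.1 and 17.7 CPM (-1.03 ± 0.06, edgeR adjusted p 2.86e-19). The arms of FDPS did not overlap, and its exons share 18.6% of its length with RUSC1-AS1 on the other strand. PMVK, the next kinase after MVK, fell from 35.7, 36.0 and 35.2 CPM to 21.5, 19.5 and 18.7 CPM (-0.84 ± 0.07, edgeR adjusted p 1.97e-15), again with no overlap.

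The enzymes of the first steps moved in opposite directions. ACAT2, the thiolase that joins acetyl-CoA units, fell by 0.53 ± 0.07 on the log2 scale. Its exons share 43.0% of its length with ENSG00000112096 on the other strand, which rose by 0.96 ± 0.04, so its counts may hold reads of that gene. HMGCS1, the HMG-CoA synthase (ENSG00000112972, chromosome 5, 43289395 to 43313512, minus strand), was the member of the pathway that rose, from 31.6, 31.3 and 30.3 CPM to 37.0, 38.7 and 40.3 CPM (0.31 ± 0.06, edgeR adjusted p 4.36e-06). Its arms did not overlap, and 15.0% of its length is shared with ENSG00000261604 on the other strand. MVD, the decarboxylase, and IDI1, the isomerase, fell by 0.43 ± 0.07 and 0.26 ± 0.07.

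Among the 11 enzymes from squalene to cholesterol, 6 fell, 2 rose and 3 were not called at 72 h (median -0.10). EBP, the sterol isomerase (ENSG00000147155, chromosome X, 48521158 to 48528716, plus strand), had the lowest effect of the group. Its control libraries held 26.9, 30.5 and 28.3 CPM and the treated ones 17.4, 17.8 and 16.0 CPM (-0.74 ± 0.07, edgeR adjusted p 1.24e-12), with no overlap. DHCR7, a reductase at the end of the pathway, fell from 62.7, 62.8 and 65.5 CPM to 53.8, 49.6 and 48.1 CPM (-0.33 ± 0.05, edgeR adjusted p 1.25e-07). FDFT1, the squalene synthase, fell from 43.5, 43.3 and 46.4 CPM to 36.0, 35.8 and 36.2 CPM (-0.30 ± 0.05, edgeR adjusted p 1.5e-06). The arms of both genes were separate, though each effect was smaller than that of EBP.

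LSS, the lanosterol synthase, and NSDHL, a sterol dehydrogenase, fell by 0.38 ± 0.07 and 0.32 ± 0.07. SQLE, the squalene epoxidase, changed least of the called members. It went from 112, 114 and 114 CPM to 101, 108 and 109 CPM (-0.10 ± 0.04, edgeR adjusted p 0.0403). That call did not hold with DESeq2 (adjusted p 0.078) or with any 1 of 5 of the 6 libraries left out, the exception being replicate 3 of miR-497-5p-RE.

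Against the rest of the group, TM7SF2 and SC5D rose. TM7SF2, a sterol reductase, went from 15.6, 15.3 and 12.9 CPM to 22.7, 20.9 and 19.8 CPM (0.53 ± 0.10, edgeR adjusted p 5.62e-06). SC5D, the sterol desaturase that acts shortly before DHCR7, went from 14.3, 16.5 and 15.2 CPM to 18.4, 19.8 and 20.8 CPM (0.36 ± 0.07, edgeR adjusted p 4.33e-05). Neither pair of arms overlapped. MSMO1 (0.04 ± 0.07), HSD17B7 (0.20 ± 0.15) and CYP51A1 (0.30 ± 0.26) were not called. For HSD17B7, counts assigned to its named pseudogenes came to 19.4% of its own. For CYP51A1, the lanosterol demethylase, 78.8% of the length is shared with LRRD1 on the same strand, and only 1246 counts remained over the 24 libraries, so its values carry little information.

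All 5 regulators and carriers were called at 72 h, 4 lower and 1 higher (median -0.64). SREBF2, the SREBP best known for sterol genes (ENSG00000198911, chromosome 22, 41833079 to 41907308, plus strand), stood at 134, 136 and 129 CPM in controls and at 73.1, 73.8 and 66.4 CPM with miR-497-5p-RE (-0.90 ± 0.04, edgeR adjusted p 3.04e-22). SREBF1, whose protein is best known for fatty acid genes (ENSG00000072310, chromosome 17, 17810399 to 17837002, minus strand), fell from 56.2, 59.1 and 58.8 CPM to 33.1, 31.9 and 31.9 CPM (-0.85 ± 0.05, edgeR adjusted p 2.71e-18). SCAP fell from 35.8, 35.9 and 38.3 CPM to 23.2, 23.7 and 23.5 CPM (-0.64 ± 0.07, edgeR adjusted p 3.07e-11). In all 3 genes every treated library was below every control.

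INSIG1 fell by 0.13 ± 0.05, a call that did not hold with an offset for gene length (adjusted p 0.433, edgeR) or without replicate 3 of miR-497-5p-RE (adjusted p 0.0587, edgeR). STARD4, which carries cholesterol through the cytosol, rose from 33.2, 30.2 and 31.8 CPM to 43.7, 47.4 and 42.7 CPM (0.49 ± 0.07, edgeR adjusted p 8.16e-08), with no overlap.

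In the fatty acid group, the synthase, the elongase and the polyunsaturated desaturases fell, while ACLY, SCD and LPIN1 rose. FASN, the synthase itself (ENSG00000169710, chromosome 17, 82078333 to 82098332, minus strand), went from 149.9, 143 and 151 CPM to 58.8, 55.9 and 53.3 CPM, the lowest effect of the 32 members (-1.40 ± 0.04, edgeR adjusted p 1.53e-29). ELOVL6, which lengthens the product of FASN, fell from 114, 107 and 111 CPM to 73.4, 81.2 and 72.8 CPM (-0.55 ± 0.05, edgeR adjusted p 7.52e-14). The arms of both genes were far apart. FADS1 and FADS2, the desaturases of polyunsaturated fatty acids, fell by 0.21 ± 0.04 and 0.38 ± 0.05, and they share 490 exon bases on opposite strands.

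ACLY, which supplies acetyl-CoA from citrate, rose from 56.2, 54.6 and 56.3 CPM to 71.0, 75.5 and 77.2 CPM (0.42 ± 0.04, edgeR adjusted p 3e-11). SCD, the desaturase that makes oleic acid, rose from 147, 153 and 147 CPM to 188, 186 and 205 CPM (0.37 ± 0.04, edgeR adjusted p 2.3e-11). LPIN1, a phosphatidate phosphatase of glycerolipid synthesis (ENSG00000134324, chromosome 2, 11677595 to 11827409, plus strand), had the highest effect of the members. It rose from 50.3, 49.3 and 48.0 CPM to 89.0, 99.6 and 98.8 CPM (0.96 ± 0.05, edgeR adjusted p 2.93e-21). None of the 3 pairs of arms overlapped. ACACA, the acetyl-CoA carboxylase, and ACSS2, which activates acetate, were not called (-0.11 ± 0.07 and -0.01 ± 0.06). ACACA was called lower with scaling by library totals (-0.21, adjusted p 0.0121, edgeR) and with an offset for gene length (-0.23, adjusted p 0.00598, edgeR).

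**Figure D3:**
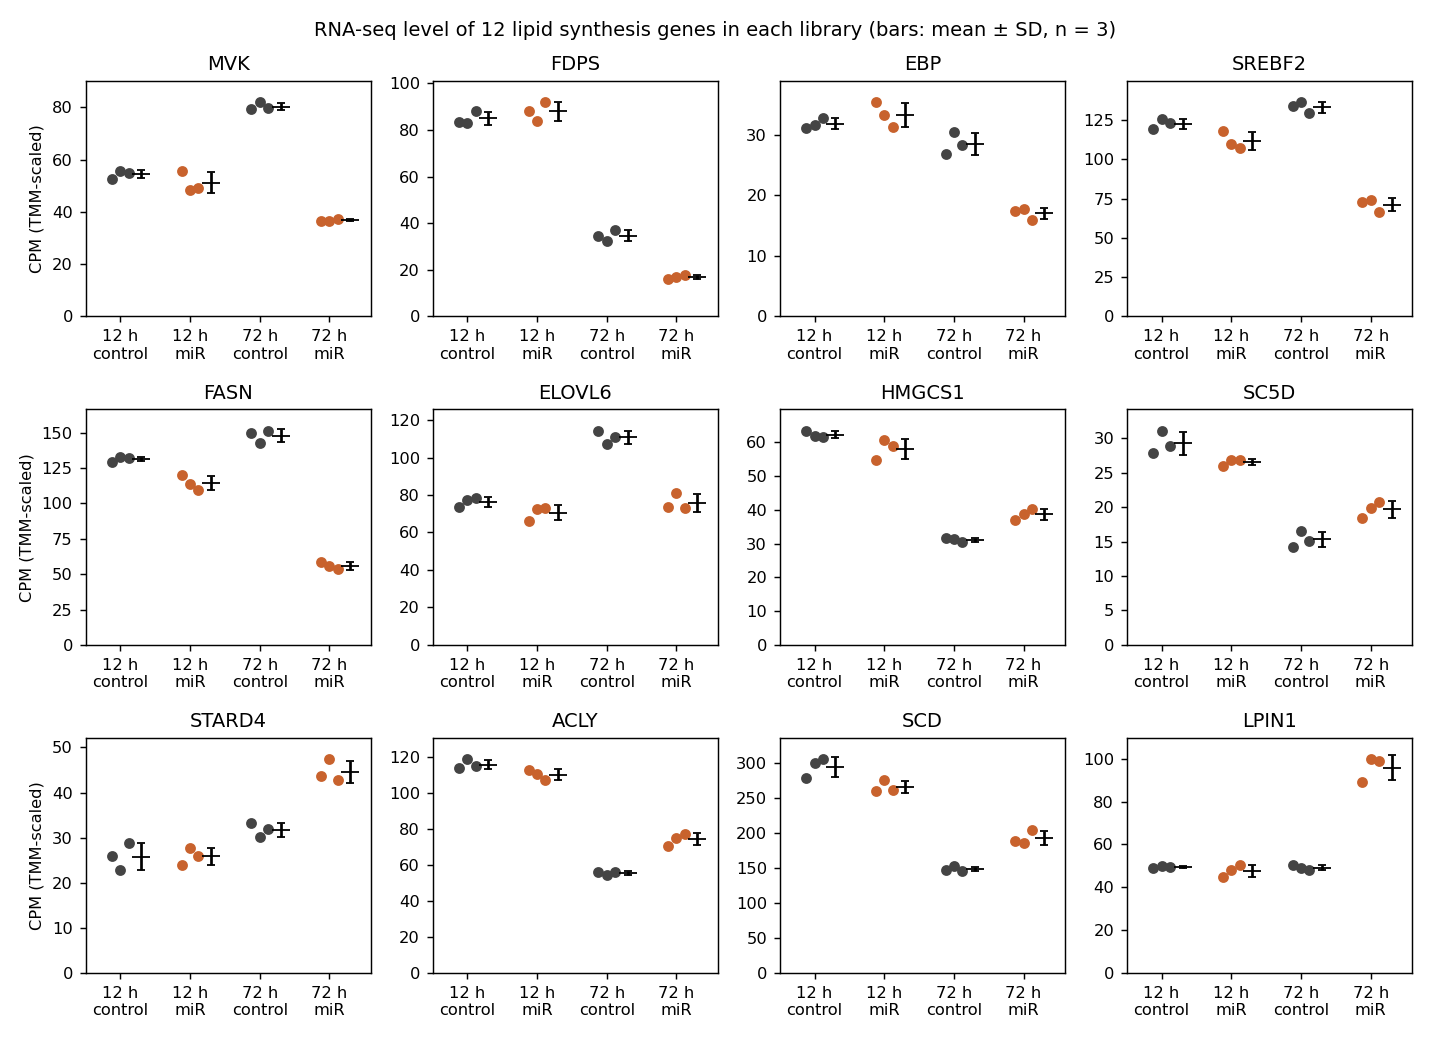
RNA-seq level of 12 members in each library. The vertical axis is CPM after TMM scaling, dark grey points are control libraries, orange points are miR-497-5p-RE libraries, and the black dash with bars is the mean ± SD of 3 libraries. FASN, MVK and SREBF2 are lowest in the 72 h treated libraries, FDPS is lower in both 72 h groups than at 12 h, and HMGCS1, ACLY and SCD are highest at 12 h.

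At 12 h the effects on the same genes were small. In RNA-seq, 6 of 32 members fell and 0 rose, beside 5.3% lower and 7.25% higher of all genes tested. By role these were 0 of 7 mevalonate enzymes, 1 of 11 later sterol enzymes, 2 of 5 regulators and 3 of 9 fatty acid genes. At an unadjusted p under 0.05, 10 members passed. DESeq2 also gave 6 lower and 0 higher.

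FASN again came first at 12 h, with 129.5, 132 and 132 CPM in controls and 119.7, 114 and 109.5 CPM with miR-497-5p-RE (-0.20 ± 0.04, edgeR adjusted p 0.000447). INSIG1 stood at 55.5, 58.5 and 59.7 CPM in controls and at 48.5, 51.7 and 50.6 CPM in treated libraries (-0.20 ± 0.05, edgeR adjusted p 0.00153). SCD held 279, 301 and 306 CPM against 261, 276 and 262 CPM (-0.15 ± 0.04, edgeR adjusted p 0.00485). The arms of these 3 genes did not overlap. FADS1 held 223, 227 and 236 CPM against 214, 207 and 211 CPM (-0.12 ± 0.04, edgeR adjusted p 0.0231), also with no overlap. SQLE (-0.12 ± 0.04, edgeR adjusted p 0.0283) and SREBF2 (-0.14 ± 0.04, edgeR adjusted p 0.0286) completed the 6.

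Single libraries decided several of these 12 h calls. Without control replicate 3 the count of members lower was 2, with SQLE, SREBF2, SCD and FADS1 no longer called. Without replicate 3 of miR-497-5p-RE, TM7SF2 was called higher (0.36). SREBF2 (adjusted p 0.214) and FADS1 (0.438) were also not called with a length offset in edgeR. With scaling by library totals, 12 members were lower. The squamous marker sums given above, 114 to 491 CPM, also varied between these 12 h libraries.

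The difference between the effect at 72 h and that at 12 h was itself tested. In RNA-seq it was lower for 16 members and higher for 6, beside 26.2% lower and 22.5% higher of all genes tested. It was lower for FASN (-1.20 ± 0.06), FDPS (-1.08 ± 0.08), MVK (-1.04 ± 0.07), PMVK (-0.87 ± 0.09), SREBF1 (-0.84 ± 0.07) and EBP (-0.81 ± 0.10). It was higher for LPIN1 (1.02 ± 0.07), SCD (0.52 ± 0.05), SC5D (0.50 ± 0.10), ACLY (0.49 ± 0.06), STARD4 (0.49 ± 0.10) and HMGCS1 (0.41 ± 0.08). SCD thus fell at 12 h and rose at 72 h. For INSIG1, FADS1 and SQLE the difference was not called.

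The members also moved between 12 h and 72 h in cells with the control mimic alone. There, 21 of 32 members fell and 8 rose, beside 38.4% lower and 36.1% higher of all genes tested. In the sterol branch 14 of 18 fell and 3 rose (median -0.72), and in the fatty acid group 5 of 9 fell and 2 rose (median -0.31). FDPS dropped from 83.6, 83.2 and 88.2 CPM at 12 h to 34.4, 32.4 and 37.0 CPM at 72 h (-1.30 ± 0.05, edgeR adjusted p 5.62e-26). LSS (-1.25 ± 0.06), ACAT2 (-1.19 ± 0.06), FDFT1 (-1.07 ± 0.05), ACLY (-1.06 ± 0.04), HMGCS1 (-1.0 ± 0.05) and SCD (-0.99 ± 0.04) also fell.

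Other members were higher in the 72 h controls. TM7SF2 rose from 6.69, 6.65 and 5.91 CPM to 15.6, 15.3 and 12.9 CPM (1.19 ± 0.10, edgeR adjusted p 4.2e-14), and MVK (0.56 ± 0.05), ELOVL6 (0.54 ± 0.05), INSIG1 (0.47 ± 0.05) and STARD4 (0.30 ± 0.07) rose by less. MSMO1 (0.23), FASN (0.17) and SREBF2 (0.12) were called higher and PMVK was not called (0.04). With scaling by library totals, which moved the median of all genes from 0.00 to -0.25, those values were -0.02, -0.08, -0.13 and -0.21, and STARD4 was no longer called (0.05, adjusted p 0.563, edgeR). SREBF2 was also not called with DESeq2 (adjusted p 0.0803) or without either of 2 control libraries, replicate 1 at 12 h and replicate 2 at 72 h. With library totals 4 members were higher in all. The 72 h control libraries enter both this comparison and the effect of miR-497-5p-RE at 72 h, so the comparisons are not independent. Side by side, FDPS, LSS, ACAT2 and FDFT1 had control changes of -1.30, -1.25, -1.19 and -1.07 and effects at 72 h of -1.03, -0.38, -0.53 and -0.30. HMGCS1, ACLY, SCD and SC5D had control changes of -1.0, -1.06, -0.99 and -0.93 and effects at 72 h of 0.31, 0.42, 0.37 and 0.36.

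Per length of transcript, members in 12 h control libraries ranged from 55.1 ± 2.66 RPKM (CPM divided by gene length in kilobases; SD, n = 3) for SCD to 1.05 ± 0.175 RPKM for CYP51A1. SQLE (34.1 ± 1.40 RPKM), PMVK (27.1 ± 1.08 RPKM) and DHCR7 (23.0 ± 1.26 RPKM) followed SCD. DHCR7, FDPS (22.9 ± 0.748 RPKM), FADS1 (22.4 ± 0.638 RPKM) and ACLY (22.2 ± 0.504 RPKM) did not differ beyond their spread. At 72 h PMVK (27.9 ± 0.308 RPKM), SCD (27.8 ± 0.602 RPKM) and SQLE (26.4 ± 0.310 RPKM) led, and FDPS had gone from the fifth to the fifteenth place.

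In the pull-down at 12 h, no member was called in either direction with edgeR or DESeq2, beside 0.326% higher and 0.269% lower of the 17477 genes tested. At an unadjusted p under 0.05, 6 members passed. Effects ran from -0.48 to 0.45. FASN, with its 3 sites of 7 bases, held 112, 100.2 and 102 CPM in controls and 85.2, 91.6 and 103 CPM with miR-497-5p-RE (-0.17 ± 0.10), and the arms overlapped. ELOVL6, with the 8mer, held 47.8, 49.2 and 60.8 CPM against 50.8, 54.3 and 55.5 CPM (0.03 ± 0.14), also with overlap. The squamous marker sums were uneven in these libraries too, at 136 to 495 CPM in controls and 176 to 415 CPM with miR-497-5p-RE. Their part in the pull-down results was not tested.

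In the pull-down at 72 h, 13 members fell and 1 rose, beside 12.6% lower and 10.2% higher of all genes tested. The falls were in 5 of 7 mevalonate enzymes, 3 of 11 later sterol enzymes, 2 of 5 regulators and 3 of 9 fatty acid genes. MVK went from 145, 180.0 and 157 CPM to 67.5, 65.1 and 63.6 CPM (-1.30 ± 0.11, edgeR adjusted p 3.62e-09). SREBF1 went from 95.1, 83.6 and 93.7 CPM to 44.8, 46.7 and 45.9 CPM (-0.99 ± 0.12, edgeR adjusted p 5.65e-07). ELOVL6 went from 54.5, 50.3 and 40.2 CPM to 19.6, 19.7 and 20.7 CPM (-1.27 ± 0.15, edgeR adjusted p 5.81e-07). In all 3 the treated libraries were below every control.

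FASN fell in the pull-down from 193, 176 and 199 CPM to 122, 106 and 120.1 CPM (-0.71 ± 0.10, edgeR adjusted p 1.28e-05), with no overlap. EBP (-0.94 ± 0.18), PMVK (-0.73 ± 0.13), ACACA (-0.68 ± 0.18), SQLE (-0.66 ± 0.12) and SREBF2 (-0.54 ± 0.10) also fell. ACAT2 (-0.83 ± 0.28), HMGCS1 (-0.72 ± 0.23), MVD (-0.41 ± 0.13) and DHCR7 (-0.32 ± 0.10) were called with adjusted p of 0.0206 to 0.0369 in edgeR. ACAT2 was low, at 6.24, 2.45 and 4.45 CPM in controls and 2.64, 1.89 and 2.60 CPM with miR-497-5p-RE, and its arms overlapped. Among the 6 fits that each left out 1 library, the call of ACAT2 was lost in 5. Those of MVD and DHCR7 were lost in 4 each and that of HMGCS1 in 3. In a fit of only the 6 libraries compared, ACAT2 and HMGCS1 were not called (adjusted p 0.22 and 0.167, edgeR). With a length offset, ACAT2, MVD and DHCR7 were not called (adjusted p 0.0739, 0.0657 and 0.178, edgeR). The call of ACACA was lost without replicate 3 of miR-497-5p-RE (-0.56, adjusted p 0.0516, edgeR). The count lower was 9 to 13 over the fits that left out 1 library, with 9 without replicate 2 of miR-497-5p-RE. LPIN1 rose from 64.0, 62.2 and 62.9 CPM to 72.1, 85.2 and 102 CPM (0.46 ± 0.14, edgeR adjusted p 0.0205), a call lost without any 1 control replicate or without replicate 3 of miR-497-5p-RE.

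Between the times, the pull-down effect was lower at 72 h for 5 members and higher for 1, beside 6.27% lower and 5.94% higher of all genes tested. These were ELOVL6 (-1.30 ± 0.21), HMGCS1 (-1.11 ± 0.30), MVK (-1.08 ± 0.16), SREBF1 (-0.76 ± 0.16) and FASN (-0.54 ± 0.15), with LPIN1 higher (0.81 ± 0.20). The calls of FASN and HMGCS1 were each lost without some single library (adjusted p up to 0.0526 in edgeR). Scaling by library totals gave 9 members lower.

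The level of a transcript in the pull-down can also reflect its level in the cells, so a fit over both assays tested how far the effect in the pull-down exceeded that in RNA-seq. This gave both assays 1 spread per gene, with a biological coefficient of variation of 0.2 at 12 h and 0.175 at 72 h. The assays alone had 0.06 (RNA-seq) and 0.349 (pull-down). Standard errors and adjusted p of the difference may therefore be too small for the spread of the pull-down. At 12 h no member was called with edgeR, beside 0.984% higher and 0.357% lower of 17078 genes tested, and 5 members had an unadjusted p under 0.05. DESeq2 called 1 member, NSDHL, lower. At 72 h the difference was higher for 4 members and lower for 6, beside 7.46% higher and 7.01% lower of 16896 genes tested. With library totals the median of all genes was 0.13 at 12 h and 0.14 at 72 h, so differences are relative to that scaling.

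The members with a higher difference at 72 h were FDPS (1.06 ± 0.26, edgeR adjusted p 0.01), FASN (0.68 ± 0.09, edgeR adjusted p 5.19e-05), SCAP (0.53 ± 0.09, edgeR adjusted p 0.000497) and SREBF2 (0.35 ± 0.11, edgeR adjusted p 0.0362). For SREBF2 the call was lost in 9 of the 12 fits that left out 1 library. All 4 had fallen in RNA-seq, and none rose in the pull-down. FDPS stood at 7.79, 8.66 and 11.3 CPM in pull-down controls and at 12.5, 7.70 and 7.98 CPM in treated libraries. SCAP stood at 212, 205 and 207 CPM in controls and at 213, 179 and 192 CPM in treated libraries. Both pairs of arms overlapped.

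The members with a lower difference were HMGCS1 (-1.05 ± 0.22), ELOVL6 (-0.75 ± 0.14), ACLY (-0.60 ± 0.16), SQLE (-0.59 ± 0.11), LPIN1 (-0.52 ± 0.13) and SCD (-0.46 ± 0.10). HMGCS1 had risen in RNA-seq while its pull-down level went from 6.34, 7.88 and 5.29 CPM to 4.60, 3.51 and 3.62 CPM, with no overlap. It was not called with limma-voom weights per assay (adjusted p 0.0791). SQLE went from 70.5, 73.7 and 80.2 CPM to 41.6, 47.9 and 52.6 CPM in the pull-down, again with no overlap. ACLY and SCD, which rose in RNA-seq, had pull-down effects of -0.15 ± 0.17 and -0.07 ± 0.11 that were not called. With library totals, ACLY and LPIN1 were no longer called (adjusted p 0.0579 and 0.0586, edgeR). By branch, 1 of 18 sterol members was higher and 2 lower, and 1 of 9 fatty acid members was higher and 4 lower.

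**Figure D4:**
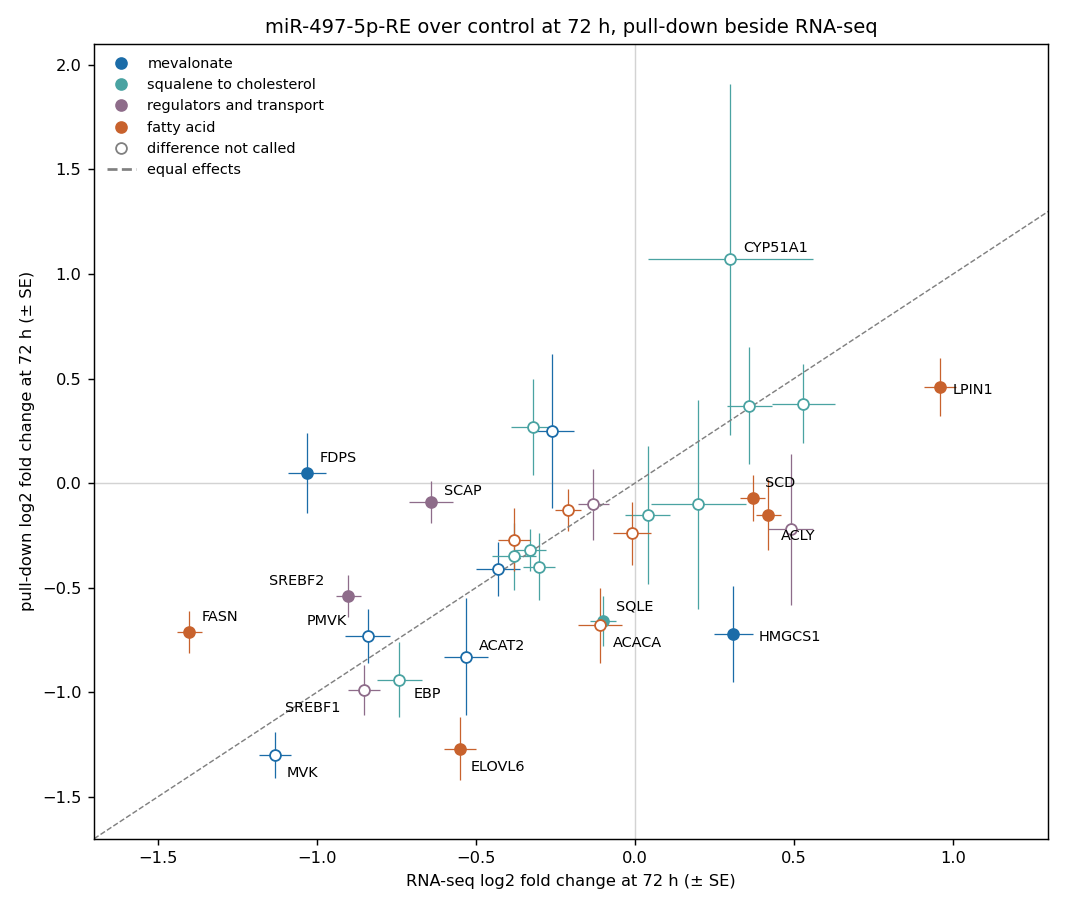
Effect of miR-497-5p-RE at 72 h in the pull-down (vertical axis) beside RNA-seq (horizontal axis) for the 32 members, as log2 fold changes with standard errors. Filled points are members whose pull-down effect differed from the RNA-seq effect at an adjusted p under 0.05, and the dashed line marks equal effects. FDPS, FASN, SCAP and SREBF2 lie above the line, HMGCS1, ELOVL6, SQLE, ACLY, SCD and LPIN1 below it.

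The 6 members with a 7mer-m8 or 8mer site were compared with the other 26 by counts only. In RNA-seq at 72 h, 4 of the 6 fell and 0 rose (median -0.42), and of the 26 others 16 fell and 7 rose (median -0.23). ACACA, which is among the 6 but not the 4, was called lower there with library totals or a length offset. Over all tested genes, 36.0% of those with a 7mer-m8 or 8mer site and 33.4% of those without one fell. Genes without one include those with only weaker sites. In the pull-down at 72 h, 4 of the 6 fell (FASN, ELOVL6, MVK and ACACA, median -0.70) and 9 of the 26 others fell (median -0.15). Of all tested genes, 16.0% of those with such a site and 14.8% of those without one fell there. At 12 h, 1 of the 6 (FASN, 16.7%) and 5 of the 26 others (19.2%) fell in RNA-seq. There, 13.9% of all tested genes with such a site and 3.78% of those without one fell. At 12 h the difference between the assays was called for 0 of the 6 members. Of all tested genes, 2.05% of those with such a site and 0.854% of those without one were higher.

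Related genes outside the list were counted in RNA-seq at 72 h, where 27.9% of all genes tested rose and 29.6% fell. Their lists were drawn up by function, also with earlier results of these data known. Of 10 genes of SREBP processing, 4 rose and 4 fell. ERLIN1, an endoplasmic reticulum membrane protein, fell (-0.70 ± 0.05), while SPRING1 (0.47 ± 0.04) and MBTPS1, the protease that first cuts SREBPs (0.42 ± 0.05), rose. In the pull-down at 72 h, 2 of these 10 genes rose and 1 fell, beside 10.2% and 12.6% of all genes tested. SPRING1 was the highest of them there (1.41 ± 0.14). At 12 h in the pull-down 1 rose and 0 fell, beside 0.326% and 0.269%. Beyond the input at 12 h, 1 was higher and 0 lower, beside 0.984% and 0.357%. Pull-down counts of the other related lists are not reported here. Of 10 isoprenoid branch genes, 3 rose and 2 fell in RNA-seq at 72 h. ICMT, a methyltransferase of prenylated proteins, fell (-0.62 ± 0.03), and PGGT1B, a subunit of a geranylgeranyl transferase, and NUS1, of dolichol synthesis, rose (1.09 ± 0.08 and 0.63 ± 0.04).

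Of 10 genes for sterol export, storage and liver X receptors, 4 rose and 5 fell. TMEM97, a sterol-responsive membrane protein, fell (-0.87 ± 0.05), NR1H2, a liver X receptor, fell (-0.55 ± 0.05) and NPC2, the lysosomal sterol carrier, rose (0.42 ± 0.04). Of 22 tested genes of other fatty acid, acyl-CoA and glycerolipid steps, 7 rose and 9 fell. HSD17B12 and TECR, which act in the same elongation cycle as ELOVL6, moved in opposite directions (0.85 ± 0.04 and -0.86 ± 0.06), and ELOVL1 fell (-0.58 ± 0.04). Of 11 tested genes of fatty acid oxidation, 7 rose (63.6%) and 3 fell (27.3%), with a median of 0.24, beside the same 27.9% and 29.6% of all genes. CPT1A, the carnitine transferase of the outer mitochondrial membrane, rose (0.65 ± 0.05), and ACADVL, a dehydrogenase of long acyl chains, fell (-0.69 ± 0.05).

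Promoters were searched from 250 bases before to 50 bases after the start in the RefSeq table (GRCh38.p14), which matched 28 members and not ACAT2, FDFT1, SQLE or FASN. On both strands, CCAAT was found in 12 of 15 sterol branch promoters (80%), in 3 of 5 regulators (60%) and in 3 of 8 fatty acid promoters (37.5%), beside 34.6% of 35116 promoters. CACGTG was found in 4 of 28, beside 7.26% of all. The sterol regulatory element in the form TCACNCCAC was found in 1 member, SREBF2, beside 1.13% of all. None of these 3 motifs contains another. The matches are letters in a window and not sites of binding. The SREBF2 match is shown with the element in capitals, and the FDPS promoter is shown as a sterol branch window with 3 CCAAT matches, in capitals on either strand (ATTGG on the strand printed where the match is on the other).
SREBF2, element at 22, 41832972 to 41832980, plus strand: tgacgcgccaTCACCCCACgcaccgcttcg
FDPS, chr1:155308616-155308915, plus strand: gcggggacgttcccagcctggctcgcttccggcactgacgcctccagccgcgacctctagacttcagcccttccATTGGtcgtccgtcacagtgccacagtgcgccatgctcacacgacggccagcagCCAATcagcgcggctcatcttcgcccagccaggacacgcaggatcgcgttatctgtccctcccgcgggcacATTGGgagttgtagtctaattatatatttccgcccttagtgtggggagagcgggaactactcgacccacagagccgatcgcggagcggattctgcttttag
FDPS (-1.03) and SREBF2 (-0.90) fell in RNA-seq at 72 h, and so did PMVK (-0.84) and SREBF1 (-0.85), whose windows held no CCAAT. MSMO1, with 4 matches, was not called (0.04).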

How the data were processed

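RNA-seq and pull-down libraries of H2052 cells (24 libraries, 8 groups of 3) were analysed. The deposited files hold whole-number counts per gene. Per the submitters' processing notes, the authors used Trimmomatic 0.36, STAR 2.5.2b, featureCounts of Subread 1.5.2 and the build GRCh38. The treatment of strand and of multi-mapping reads is not stated there.

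Counts were fitted here with edgeR 4.0.16 in R 4.3.3 (TMM scaling, filterByExpr, quasi-likelihood test with robust dispersions) on the 12 libraries of an assay, or of a time for the contrast between assays, with Benjamini-Hochberg adjustment and a threshold of 0.05. Standard errors are the log2 fold change divided by the square root of F. Depth is given with the results and limits pull-down values most. Alternatives were other scaling, no low-count filter, DESeq2 1.42.0, limma 3.58.1, a length offset, a replicate block and leaving out each library. A further one fitted only the 6 libraries of a comparison. Sites were searched in GENCODE 44.

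The members and lists were chosen with earlier results of these data known. All members are named; values per library are given for the 3 smallest adjusted p per role at 72 h, up to 4 called members of each other comparison and members against their role's majority, and a few others were chosen after their values were seen. The labels gave each group replicates 1 to 3 and did not say that a number pairs samples, so the main fits used no pairing.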

Additional observations from a re-analysis of the deposited data

Results flagged for a closer look

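The effect of miR-497-5p-RE differed between 12 h and 72 h, by the test of the difference itself in edgeR, in 22 members in RNA-seq. Values are the log2 effect at 72 h minus that at 12 h. In the mevalonate pathway they were -1.08 for FDPS, -1.04 for MVK, -0.87 for PMVK, -0.63 for ACAT2, -0.48 for MVD and 0.41 for HMGCS1. From squalene to cholesterol they were -0.81 for EBP, -0.34 for LSS, -0.33 for DHCR7, -0.29 for NSDHL, -0.28 for FDFT1 and 0.50 for SC5D. Among regulators they were -0.84 for SREBF1, -0.77 for SREBF2, -0.73 for SCAP and 0.49 for STARD4. Among fatty acid genes they were -1.20 for FASN, -0.43 for ELOVL6, -0.32 for FADS2, 0.49 for ACLY, 0.52 for SCD and 1.02 for LPIN1. In the pull-down 6 members differed, HMGCS1 by -1.11, MVK by -1.08, SREBF1 by -0.76, FASN by -0.54, ELOVL6 by -1.30 and LPIN1 by 0.81. HMGCS1 thus differed in opposite directions in the 2 assays.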

How the results depend on the processing

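No member's effect that was called in either fit changed direction, apart from PMVK (-0.21), MSMO1 (-0.02), SREBF2 (-0.13) and FASN (-0.08) in controls over time with library totals. That scaling gave 12 members lower in RNA-seq at 12 h, 4 higher in controls over time, 9 lower between times in the pull-down and 1 higher beyond the input at 12 h. DESeq2 gave 1 lower beyond the input at 12 h. The cause was not tested. Leaving out 1 library gave 2 to 7 lower and 0 to 1 higher in RNA-seq at 12 h, 0 to 1 higher in the pull-down at 72 h and 0 to 1 higher beyond the input at 12 h. For RNA-seq at 72 h it gave 7 higher and 19 lower in every fit.

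Over all genes tested, calls higher and lower moved with library totals from 1256 and 919 to 722 and 1746 in RNA-seq at 12 h, from 4835 and 5128 to 3808 and 6137 at 72 h, from 6255 and 6650 to 4488 and 8400 in controls over time, from 57 and 47 to 78 and 17 in the pull-down at 12 h and from 1038 and 1096 to 854 and 1407 between its times. Beyond the input they moved from 168 and 61 to 367 and 33 at 12 h and from 1260 and 1185 to 2085 and 747 at 72 h.

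Replicate numbers of the control and miR-497-5p-RE libraries showed no consistent pairing. Correlations of deviations were 0.096, 0.05 and 0.3 in RNA-seq at 12 h and at most 0.033 in the other 3 comparisons of the mimics. In RNA-seq at 12 h, 2 of 3 control libraries correlated best with their own number. These values do not settle whether a number marks a shared culture or day. With the replicate block, 7 members were higher and 20 lower in RNA-seq at 72 h, and 1 and 13 in the pull-down at 72 h, 0 and 10 with an added length offset. The block ended the call of SREBF2 beyond the input at 72 h (adjusted p 0.0521). Low levels limit some pull-down values, such as CYP51A1 (0.484 CPM in controls at 72 h), IDI1 (2.16 CPM) and HSD17B7 (3.40 CPM). The called members ACAT2 (4.38 CPM) and HMGCS1 (6.50 CPM) were also low in those controls.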
